A study of Mus musculus with 6 samples.

Results

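The calmodulin genes Calm2 and Calm3 and 7 calmodulin-dependent kinase genes (Camk2a, Camk2b, Camk2d, Camk2g, Camk4, Camkk1 and Camkk2) were followed by RNA sequencing in mouse brain libraries that carry the label of oligodendrocyte progenitor cells (OPCs), which give rise to myelin-forming glia. These 9 genes were taken by name from a table of 34250 gene rows, and all 9 were found. The 6 libraries came from wild-type C57BL/6 brain, 3 of them control and 3 treated with fibrinogen, the clotting protein that leaks from blood into injured brain. Per the study's methods, OPCs were cultured from the cortex of newborn pups and given fibrinogen (2.5 mg/mL) or vehicle. The length of treatment is not given in the sources used here, the column names of the table give 2.5 mg of fibrinogen and number the libraries as mice, and separate cultures or animals are not stated in the labels. A p-value here therefore reflects how far these 6 libraries scatter, and that scatter may be technical.

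Calmodulin is a small calcium sensor. When calcium rises in a cell, calmodulin binds it and switches on a family of protein kinases. CaMKII is a multi-subunit kinase whose alpha, beta, delta and gamma subunits come from separate genes, Camk2a, Camk2b, Camk2d and Camk2g. The alpha subunit is best known from excitatory neurons of the forebrain, where it takes part in synaptic plasticity, and the beta subunit binds actin and has also been linked to oligodendrocyte maturation in mice. Delta and gamma are the more widely expressed subunits. CaMKIV, from Camk4, is a largely nuclear kinase that phosphorylates the transcription factor CREB. The kinases CaMKK1 and CaMKK2 stand upstream: they phosphorylate CaMKI and CaMKIV, and CaMKK2 also activates the energy sensor AMPK.

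The coding sequences show how far reads of these related genes can be told apart. The first 120 coding bases of the calmodulin genes are printed 5′ to 3′ from the canonical GENCODE transcripts of the GRCm39 annotation, with capitals at the 18 positions where the genes differ.
Calm2: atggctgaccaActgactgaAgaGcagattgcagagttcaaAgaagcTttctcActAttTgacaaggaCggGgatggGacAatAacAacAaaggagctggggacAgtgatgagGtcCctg
Calm3: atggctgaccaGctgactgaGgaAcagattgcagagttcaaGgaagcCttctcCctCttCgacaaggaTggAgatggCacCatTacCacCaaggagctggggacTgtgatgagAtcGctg
Over the whole coding sequence of 447 bases Calm2 and Calm3 differed at 78 positions (82.55% identity) and in 0 of 149 amino acids, so both transcripts encode the same protein. The longest run shared at the same coding position was 17 bases. Of the CaMKII genes, Camk2b, Camk2d and Camk2g were compared, and Camk2a was not. The comparison lay around the codon of the threonine that the kinase phosphorylates on itself, codon 287 of the beta, delta and gamma subunits. In these 63 bases, coding bases 829 to 891, the codon of the threonine starts at base 31 of the stretch, and capitals mark the 23 positions that are not the same in all 3 genes.
Camk2b: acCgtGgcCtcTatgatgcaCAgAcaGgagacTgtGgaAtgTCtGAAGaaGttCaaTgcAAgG
Camk2d: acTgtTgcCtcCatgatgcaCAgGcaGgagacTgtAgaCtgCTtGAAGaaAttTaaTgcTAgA
Camk2g: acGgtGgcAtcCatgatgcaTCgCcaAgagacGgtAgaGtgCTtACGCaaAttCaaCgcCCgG
Up to and including this codon (861 bases), identity was 80.84% between Camk2b and Camk2g, 79.09% between Camk2b and Camk2d and 77.93% between Camk2d and Camk2g. The longest shared run of any of these pairs was 29 bases. How the authors' counting treated reads that map to several places is not given in the sources used here, and sequence shared outside the coding parts was not compared.

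The promoters of the kinase kinase genes are shown because these paralogs differed most in their response, as described below. The 250 bases before 1 start site of each gene were taken from the RefSeq promoter table (GRCm38.p6). Capitals mark the GC box (GGGCGG on either strand). For both genes the RefSeq gene begins farther upstream, and for Camkk1 it begins 2965 bases before the gene start given below. Other start sites were not examined. Camkk1 lies on the plus strand (chr11:73018738-73018987) and Camkk2 on the minus strand (chr5:122779411-122779660).
Camkk1: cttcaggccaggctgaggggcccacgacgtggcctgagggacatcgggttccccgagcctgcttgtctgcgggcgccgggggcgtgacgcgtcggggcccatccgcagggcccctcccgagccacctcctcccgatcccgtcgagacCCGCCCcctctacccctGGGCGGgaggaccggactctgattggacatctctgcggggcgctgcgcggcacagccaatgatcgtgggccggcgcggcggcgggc
Camkk2: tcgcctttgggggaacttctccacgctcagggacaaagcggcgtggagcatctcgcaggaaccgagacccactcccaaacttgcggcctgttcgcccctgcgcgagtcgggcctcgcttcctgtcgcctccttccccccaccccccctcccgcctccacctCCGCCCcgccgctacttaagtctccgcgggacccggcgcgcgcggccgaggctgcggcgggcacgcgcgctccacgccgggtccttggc
Camkk1 held 2 GC boxes and Camkk2 held 1, a motif present in 32.94% of 27025 promoters of this length. The cAMP response element (TGACGTCA), found in 1.62% of promoters, and the E box (CACGTG), found in 6.05%, were in neither of these windows. Both promoters were rich in G and C, at 74.4% for Camkk1 and 72.4% for Camkk2 against a median of 52.0% over all promoters. These matches describe the letters and no factor binding was measured.

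The marker genes went against the cell type on the label. The 11 neuron markers had a median of 163 to 182 RPKM per library (reads per kilobase of exon, scaled to the library's reads in genes), and the 7 OPC markers a median of 5.97 to 7.32 RPKM. The synaptic gene Snap25 ranged from 493 to 735 RPKM, the OPC receptor gene Pdgfra from 5.76 to 8.03 RPKM, and the OPC proteoglycan gene Cspg4 stayed below 1 RPKM in all 6 libraries. No marker gene was at 0 in any library. The summed level of the neuron list overlapped between groups (2142 to 2414 RPKM in controls and 2191 to 2665 RPKM with fibrinogen), with 1 of 11 genes, Stmn2, called higher and 0 lower. The summed OPC list was higher in all fibrinogen libraries (66.8 to 68.8 RPKM) than in any control (42.9 to 45.4 RPKM). Of its 6 tested genes 5 were called higher, beside 5.87% of all tested genes. Pdgfra was the exception. Its control mean was 6.85 RPKM and its fibrinogen mean 6.29 RPKM, and the groups overlapped (log2 change -0.11, limma adjusted p = 0.615). The largest part of the sum was Cspg5, whose control mean was 16.6 RPKM and fibrinogen mean 25.4 RPKM. Among excitatory neuron genes, Neurod6 was called higher (56.7 RPKM in controls and 104 RPKM with fibrinogen, group means), while Slc17a7 (73.0 and 65.6 RPKM) and Tbr1 overlapped between groups and did not pass. Single genes of other glial lists also differed. The microglial gene C1qa was called lower (18.4 and 6.53 RPKM, group means) and Cx3cr1 higher (7.53 and 15.2 RPKM), and 4 microglial genes did not pass. The astrocyte gene Aqp4 and the oligodendrocyte gene Mag were called higher, while the other 5 genes of each list did not pass. The summed oligodendrocyte list overlapped between groups (192 to 314 RPKM in controls and 214 to 351 RPKM with fibrinogen). The summed astrocyte list was lower in all fibrinogen libraries (314 to 335 RPKM) than in any control (338 to 461 RPKM). The astrocyte gene Gfap averaged 127 RPKM in controls, with 222 RPKM in replicate 3, and 39.1 RPKM with fibrinogen (limma adjusted p = 0.0503). In such bulk samples, fewer cells of a type and less RNA per cell cannot be told apart. The libraries held 36670999 to 44448983 reads, and control replicate 3 stood apart from the other controls on the second principal component (22.6% of the variance). The 4 striatal neuron genes also spread widely among controls, from 150 RPKM in replicate 3 to 820 RPKM in replicate 2, and 0 of them passed the test.

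**Figure D1:**
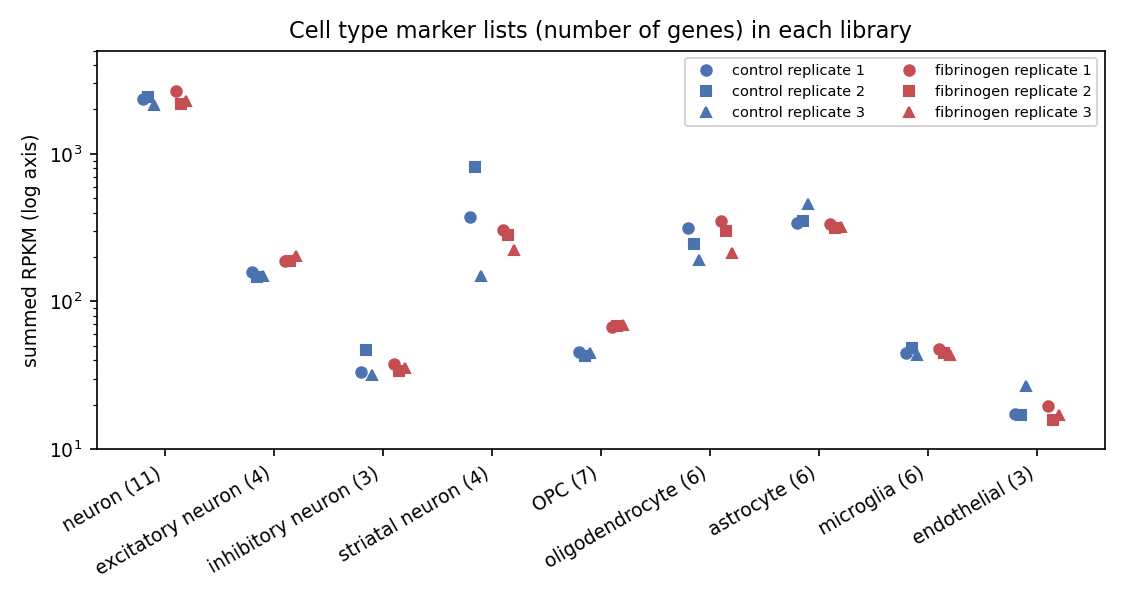
Summed RPKM (log axis) of 9 cell type marker lists, with the number of genes of each in parentheses; each point is 1 library, blue for control and red for fibrinogen. Neuron markers (2142 to 2665 RPKM) lie far above OPC markers (42.9 to 68.8 RPKM) in every library, and the OPC list is higher in all 3 fibrinogen libraries.

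Levels of the 9 genes spanned a wide range, and only part of their order held in all 6 libraries. Per length, Calm2 was the highest and the fifth most abundant of all rows, with a mean of 5024 RPKM over the 6 libraries, or 0.737% of all reads. Calm3 followed at 901 RPKM and Camk2a at 509 RPKM, and each of these steps held in all 6 libraries. Camk2b (84.9 RPKM) and Camk2g (80.9 RPKM) did not separate per length, since Camk2b was the higher in 4 of 6 libraries. This depends on the exon lengths used, 9125 bases for Camk2b and 3703 bases for Camk2g. By reads alone Camk2b was the higher in every library (26506 to 37494 reads against 9782 to 15002). Camk4 (22.8 RPKM) and Camkk1 (20.5 RPKM) changed order with the group. Camkk1 was the higher in the 3 control libraries and Camk4 in the 3 fibrinogen libraries. Camkk2 had a mean of 11.6 RPKM. It was below Camkk1 in 4 of 6 libraries and above it in fibrinogen replicates 1 and 2. Camk2d, at 4.46 RPKM, was the lowest per length in every library. With its exon length of 22493 bases, it had more reads than Camkk1 in control replicate 3 and every fibrinogen library. All 9 genes passed the filter on low values (at least 1 RPKM in at least 3 libraries). Read depth limited none of them, with at least 1955 reads behind every value.

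**Figure D2:**
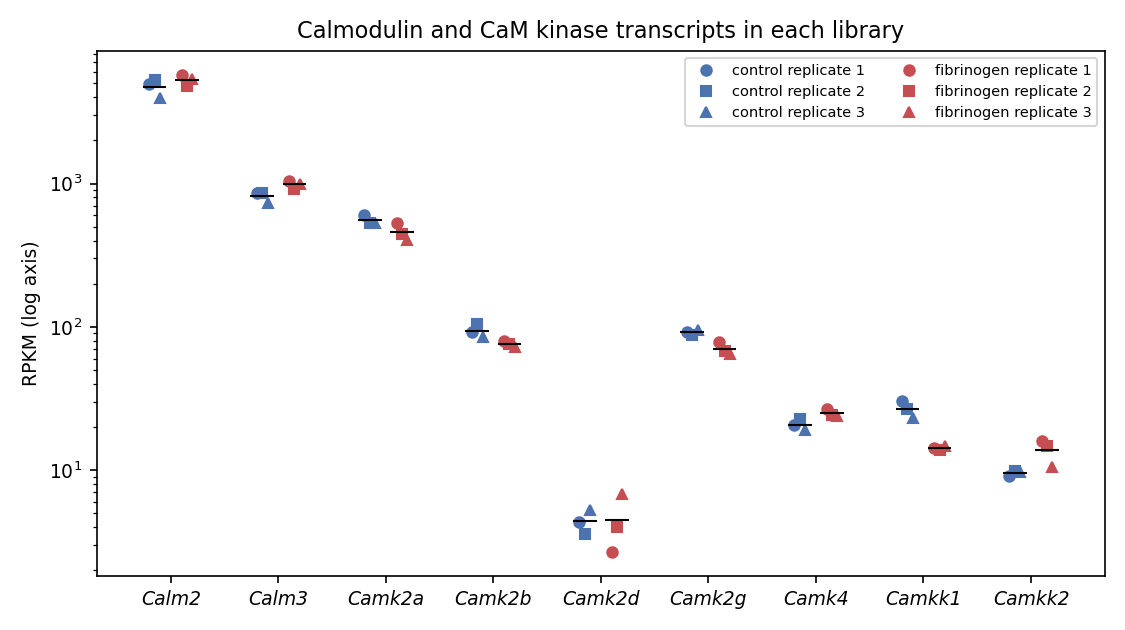
RPKM (log axis) of the 9 genes; each point is 1 library, blue for control and red for fibrinogen, the symbol gives the replicate number and the line the group mean. Calm2 lies between 3952 and 5754 RPKM, Camkk1 is lower in the 3 fibrinogen libraries and Camkk2 higher, and the Camk2d points of both groups overlap.

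Of the CaM kinase genes, 2 passed the test between fibrinogen and control libraries, and both were lower with fibrinogen. Of the 9 genes, 0 rose, 2 fell (Camkk1 and Camk2g) and 7 did not pass (limma on log2(RPKM + 1), adjusted p under 0.05 over 14710 genes). Over all tested genes 11.5% passed, 5.87% higher and 5.62% lower, and nothing about the family is read from 2 of 9. The count was 1 of 9 without control replicate 1, control replicate 2 or fibrinogen replicate 2, since Camk2g then did not pass. Camk2g also did not pass without control replicate 3 or fibrinogen replicate 3. The count stayed at 2 there because Camk2b passed in the first case and Camkk2 in the second. The groups did not overlap for 6 of the 9 genes, against 35.1% of all tested genes. The median log2 change of the 9 genes was -0.030, beside -0.0077 over all tested genes.

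**Figure D3:**
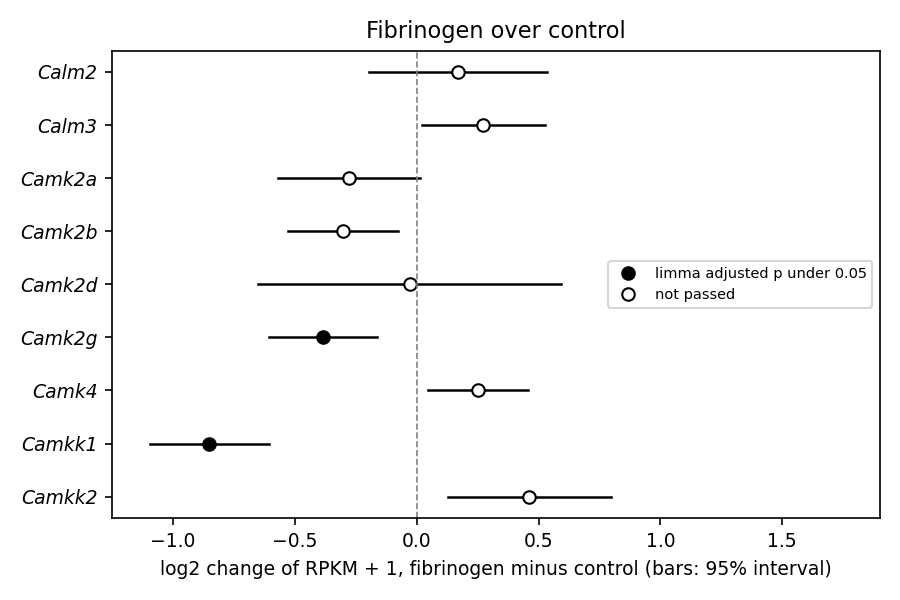
Log2 change of RPKM + 1 (fibrinogen minus control) of each gene with its 95% interval from limma, filled where the adjusted p was under 0.05. Camkk1 (-0.85) and Camk2g (-0.38) passed; Camkk2 (0.46) lies on the other side of 0 and did not pass.

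Calmodulin transcripts stayed abundant in both groups. Calm2 (chromosome 17, 87433412 to 87446935, GRCm38) was at 4976, 5302 and 3952 RPKM in control replicates 1 to 3 and at 5754, 4785 and 5376 RPKM in fibrinogen replicates 1 to 3. The groups overlapped, with control replicate 3 the lowest library. Its log2 change was 0.17 ± 0.16 (SE), with a 95% interval from -0.20 to 0.53 (limma adjusted p = 0.515). Calm3 (chromosome 7, 16915379 to 16924114) was at 864, 855 and 730 RPKM in controls and at 1042, 920 and 992 RPKM with fibrinogen. Every fibrinogen library was above every control, and control replicate 3 was again the lowest. The log2 change of 0.27 ± 0.11 (SE; 95% interval 0.020 to 0.52) did not pass the test (limma adjusted p = 0.145). Calm2 made up 85.2% ± 0.855 (SD, n = 3) of the summed RPKM of Calm2 and Calm3 in controls and 84.3% ± 0.410 with fibrinogen. This share overlapped between groups (exact permutation test over libraries, two-sided, p = 0.3; the smallest p for 3 against 3 is 0.1). Other calmodulin genes were not analysed here.

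Of the 4 CaMKII genes, Camk2g fell and Camk2a, Camk2b and Camk2d did not pass the test. The summed RPKM of Camk2a, Camk2b, Camk2d and Camk2g was 790, 730 and 719 in controls and 695, 594 and 546 with fibrinogen. All fibrinogen libraries thus lay below all controls, at 81.9% of the control mean. This sum was not tested, and Camk2a made up 73.0% to 76.8% of it. The groups also did not overlap for 35.1% of all tested genes. Camk2a, the alpha subunit (chromosome 18, 60925618 to 60988152), was at 602, 533 and 534 RPKM in controls and at 534, 447 and 403 RPKM with fibrinogen. Fibrinogen replicate 1 reached the level of control replicates 2 and 3, so the groups overlapped. Its log2 change was -0.28 ± 0.12 (SE; 95% interval -0.57 to 0.014; limma adjusted p = 0.188). Camk2b, the actin-binding beta subunit (chromosome 11, 5969644 to 6066362), was at 91.8, 105 and 85.1 RPKM in controls and at 79.2, 75.8 and 72.1 RPKM with fibrinogen. Its groups did not overlap. The log2 change of -0.30 ± 0.10 (SE; 95% interval -0.53 to -0.078) did not pass (limma adjusted p = 0.0853), and it did without control replicate 3 (-0.37, limma adjusted p = 0.0414).

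Camk2g, the gamma subunit (chromosome 14, 20734875 to 20794088), was at 91.9, 88.1 and 94.8 RPKM in controls and at 78.9, 67.5 and 64.1 RPKM with fibrinogen, 76.6% of the control mean. All fibrinogen libraries were below all controls. Camk2g fell by 0.38 ± 0.09 on the log2 scale (SE; limma adjusted p = 0.0439). The call was close to the threshold and was lost in 11 of 20 alternatives, among them without control replicate 1, 2 or 3 (limma adjusted p = 0.140, 0.0960 and 0.0656) and without fibrinogen replicate 2 or 3 (limma adjusted p = 0.104 and 0.124), with the same sign in all 20. Camk2d, the delta subunit (chromosome 3, 126596302 to 126846326), was at 4.36, 3.59 and 5.27 RPKM in controls and at 2.69, 4.01 and 6.83 RPKM with fibrinogen. The fibrinogen libraries enclosed the controls on both sides, with a coefficient of variation of 46.9% against 19.0%. Its log2 change was -0.030 ± 0.26 (SE; 95% interval -0.65 to 0.59; limma adjusted p = 0.955), and the sign turned without control replicate 3 (0.083) and without fibrinogen replicate 1 (0.23) or 2 (0.0041).

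As shares of summed RPKM, the CaMKII subunit genes overlapped between groups, and none of the 4 reached the smallest p that the exact permutation test allows. Camk2a held 74.5% ± 1.62 (SD, n = 3) of the summed CaMKII RPKM in controls and 75.3% ± 1.53 with fibrinogen (exact permutation test, p = 0.6). The Camk2b share was 12.6% ± 1.56 and 12.5% ± 0.940 (exact permutation test, p = 0.8), and its difference changed sign without control replicate 2 (0.74 percentage points) or fibrinogen replicate 1 (0.36). The Camk2g share was 12.3% ± 0.797 in controls and 11.5% ± 0.224 with fibrinogen (exact permutation test, p = 0.2), a difference of -0.80 percentage points. As a share of recovered reads the Camk2g difference was -0.45 percentage points (exact permutation test, p = 0.1, the smallest possible). Camk2d held 0.592% ± 0.125 and 0.771% ± 0.440 (exact permutation test, p = 0.7), a difference that changed sign without fibrinogen replicate 3 (-0.060 percentage points). These tests were two-sided.

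The kinases upstream showed the largest differences of the 9 genes, in opposite directions. Camkk1 (chromosome 11, 73019008 to 73042073) was at 30.3, 26.7 and 23.1 RPKM in controls and at 14.3, 13.7 and 14.7 RPKM with fibrinogen. The fibrinogen libraries were close to each other and all below the lowest control, at 53.4% of the control mean. Camkk1 fell by 0.85 ± 0.10 on the log2 scale (SE; 95% interval -1.10 to -0.61; limma adjusted p = 0.00595), and the call held in all 20 alternatives, with adjusted p values of 0.00086 to 0.0312. Camkk2, the kinase gene upstream of AMPK (chromosome 5, 122731170 to 122779409), was at 9.05, 9.84 and 9.75 RPKM in controls and at 15.9, 14.6 and 10.6 RPKM with fibrinogen. Every fibrinogen library was above every control, although fibrinogen replicate 3 lay near the controls. Its log2 change of 0.46 ± 0.14 (SE; 95% interval 0.13 to 0.80) did not pass (limma adjusted p = 0.0806). It did without fibrinogen replicate 3 (0.63, limma adjusted p = 0.0257), and also when limma-voom was run on reads recovered from the RPKM values (0.50, limma adjusted p = 0.0491), by which 13.9% of all tested genes passed.

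The make-up of the kinase kinase pair did not overlap between the groups. Camkk2 accounted for 23.0%, 27.0% and 29.7% of the summed RPKM of Camkk1 and Camkk2 in controls and for 52.7%, 51.6% and 41.8% with fibrinogen. The group means were 26.5% ± 3.34 and 48.7% ± 6.01 (SD, n = 3), a difference of 22.1 percentage points, with p = 0.1 in the exact two-sided permutation test, the smallest it can give here. Leaving out 1 library at a time moved this difference between 20.1 and 25.6 percentage points. Camkk1 exceeded Camkk2 by 3.35, 2.71 and 2.37 times in controls and stood at 0.897, 0.939 and 1.39 times its level with fibrinogen. Shares within a library do not depend on how the library was scaled. The share of a gene per length does depend on the exon length that the authors used, 3728 bases for Camkk1 and 10921 bases for Camkk2, and by reads alone Camkk2 held 51.3% in controls and 73.3% with fibrinogen.

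**Figure D4:**
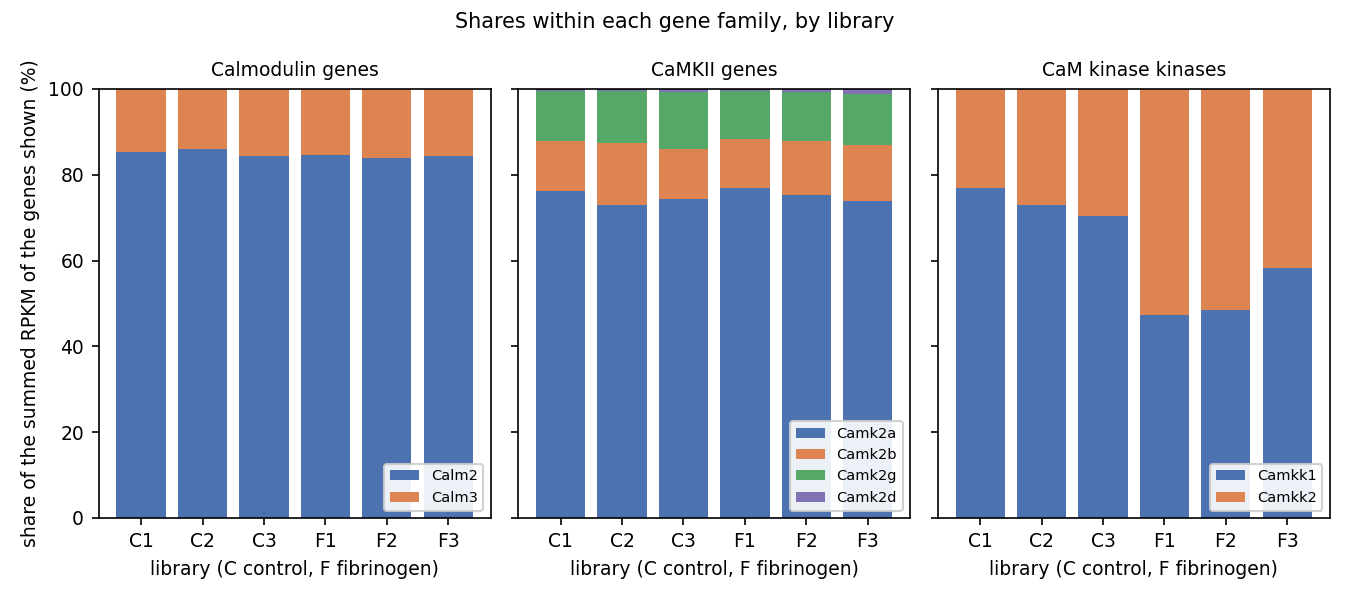
Share (%) of each gene in the summed RPKM of its family, 1 bar per library (C1 to C3 control, F1 to F3 fibrinogen), for the calmodulin, CaMKII and CaM kinase kinase genes. Calm2 takes 83.9% to 86.1% and Camk2a 73.0% to 76.8% in all bars, and Camkk2 goes from 23.0% to 29.7% in controls to 41.8% to 52.7% with fibrinogen.

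Camk4, downstream of the kinase kinases (chromosome 18, 32939041 to 33195767), was at 20.5, 22.7 and 19.1 RPKM in controls and at 26.5, 24.1 and 23.9 RPKM with fibrinogen. All fibrinogen libraries were above all controls. The log2 change of 0.25 ± 0.09 (SE; 95% interval 0.045 to 0.45) did not pass the test (limma adjusted p = 0.1098). A row on the other strand, 2310026I22Rik, shares exon sequence with Camk4 and had a mean of 0.725 RPKM, and whether the counting used strand is not given in the sources used here. None of the other 8 genes shared exon bases with another row of the table.

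Because several of these genes are expressed strongly in neurons, their values were also set against the 11 neuron markers. The mean log2 level of these markers was 7.20, 7.23 and 7.08 in controls and 7.37, 7.17 and 7.25 with fibrinogen. Centred on it, Camkk1 was at -0.95 (limma adjusted p = 0.00307), Camk2g at -0.48 (limma adjusted p = 0.0267), Camk2b at -0.40 (limma adjusted p = 0.0358) and Camk2a at -0.37 (limma adjusted p = 0.0725). Calm3 was at 0.18 and Camkk2 at 0.37 on this scale (limma adjusted p = 0.198 and 0.158). This centring shifts every gene alike and moved the median of all tested genes from -0.0077 to -0.10, so that negative values grew and positive ones shrank by construction. The part that the differences in OPC, Neurod6 and glial marker levels had in any of these differences was not tested.

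Further genes that act with calmodulin were described by lists chosen with earlier results of these data known. Of 53 genes 50 were tested, and 3 rose and 3 fell, 6 of 50 beside 11.5% of all tested genes. This count was 1 without control replicate 1, fibrinogen replicate 1 or fibrinogen replicate 3, and 2 without control replicate 2. Centred on neuron markers it was 4, and Adcy8, Marcks, Crebbp and Grin2b, described below, lost their calls (limma adjusted p = 0.0674, 0.0780, 0.0734 and 0.120). Only Dapk1 and Eef2k kept theirs (limma adjusted p = 0.0191 and 0.0287). The rest of the 4 were genes not called without centring. Among 12 tested kinases and relatives, Dapk1, a calmodulin-regulated kinase of cell death pathways, fell from 19.1 RPKM ± 1.52 to 12.2 RPKM ± 0.719 (SD, n = 3; log2 change -0.60, limma adjusted p = 0.00873), and its call held in all 20 alternatives. Eef2k, the calmodulin-dependent kinase that slows protein elongation, fell from 10.2 RPKM ± 2.04 to 5.40 RPKM ± 0.516 (log2 change -0.80, limma adjusted p = 0.0157). Its call was lost without control replicate 1, fibrinogen replicate 1 or fibrinogen replicate 3 (highest adjusted p = 0.0639). The CaMKI genes Camk1 (log2 change -0.0095) and Camk1d (-0.16), which are substrates of the kinase kinases, did not pass (limma adjusted p = 0.955 and 0.253). Camk1g, which averaged 9.31 RPKM in controls against 4.36 RPKM after fibrinogen, had the largest difference among them (-0.88) and did not pass either (limma adjusted p = 0.0690). These 3 were named after their values were seen.

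Neither gene of the CaMKII inhibitor proteins passed. Camk2n1, the more abundant, averaged 387 RPKM ± 39.7 in controls against 410 RPKM ± 74.2 after fibrinogen (SD, n = 3; log2 change 0.076, limma adjusted p = 0.767), with a sign that turned in 4 of 20 alternatives. Camk2n2 was at 14.5, 10.9 and 10.6 RPKM in controls and at 8.89, 8.85 and 9.40 RPKM with fibrinogen (log2 change -0.36, limma adjusted p = 0.0978). Of 12 tested calmodulin-dependent enzymes, among them the calcineurin subunits and the phosphodiesterases of the PDE1 family, Adcy8, a calcium-stimulated adenylyl cyclase, rose from 4.07 RPKM ± 0.573 to 7.77 RPKM ± 1.89 (log2 change 0.78, limma adjusted p = 0.0289) and 11 did not pass. The Adcy8 call was lost without control replicate 1 or 2 or fibrinogen replicate 1 or 3 (highest adjusted p = 0.0813).

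Among 6 proteins that bind calmodulin or are released from membranes by it, Marcks rose from 16.05 RPKM ± 1.57 to 23.5 RPKM ± 3.51 (SD, n = 3; log2 change 0.52, limma adjusted p = 0.0389), and the call was lost without any 1 of the 6 libraries (adjusted p from 0.0553 to 0.0949). The other 5 did not pass. None of the 4 calcineurin regulators passed, and the most abundant, Rcan2 and Rcan1, had log2 changes of -0.33 and -0.12 (limma adjusted p = 0.231 and 0.532). Of 14 genes for targets of the kinases, Crebbp, the coactivator of CREB, fell (log2 change -0.32, limma adjusted p = 0.0334) and Grin2b, the NMDA receptor subunit that CaMKII binds, rose (0.45, limma adjusted p = 0.0338). The Crebbp call was lost without any library but control replicate 3 (highest adjusted p = 0.125), and the Grin2b call without control replicate 1 or 2 or fibrinogen replicate 1 or 3 (highest adjusted p = 0.122).

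The genes whose pattern over the 6 libraries came closest were found by the root mean square difference of centred log2(RPKM + 1) values. The search covered 4079 genes with a mean of at least 10 RPKM. Predicted gene models (Gm or Rik names) and names that begin with a digit were left out. For Calm2 these were Pkig (0.030), Bod1 (0.037) and Rpl19-ps11 (0.037), where the standard deviation of Calm2 itself was 0.19. Camk2a was closest to Fth1 (0.051), Pip4k2c (0.060) and Lgmn (0.066), with its own standard deviation at 0.21. Camk2b was closest to Mbd2 (0.020), Git1 (0.048) and Ptpn11 (0.050), with its own at 0.20. With 6 libraries and 4079 genes, close patterns of this kind are a description only.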

How the data were processed

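Stranded mRNA libraries were sequenced from 6 samples. Per the labels, the authors trimmed with Trimmomatic 0.39, aligned to GRCm38 by STAR 2.7.6a, counted by featureCounts 1.5.1 and used edgeR 3.12.1, whereas the published methods give a different STAR version and GRCm39. Coordinates are given as in the table, with the build that the labels name, GRCm38. Gene ends of the table lay within 10 bases of the GRCm38.p6 RefSeq end for 49.83% of 25667 shared symbols. The ends were not compared with GRCm39, so this share does not decide the build. The authors deposited RPKM values. With the exon length in the table, 100% of values above 0 gave whole reads (tolerance 0.001) in every library.

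RPKM is not a count, so limma 3.58.1 (R 4.3.3) was fitted on log2(RPKM + 1), which understates changes of low genes, with a trended prior variance. It tested, two-sided, the 14710 genes that reached 1 RPKM in 3 or more libraries, with Benjamini-Hochberg adjustment over all of them. Shares were tested by exact permutation (scipy 1.17.1). Date-like gene names (26 rows) were tested and never named. All 9 genes are named, as are up to 4 called genes of each pathway list, or its 2 most abundant where none was called. The genes and lists were chosen with earlier results of these data known. The pseudocount, filter, scaling, prior variance, library weights and threshold (0.01) were varied in turn, limma-voom was run on recovered reads, replicate number was added as a block, and each library was left out once.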

Additional observations from a re-analysis of the deposited data

How the results depend on the processing

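Camkk1 kept its direction and its call in all 20 alternatives, and Calm2, Calm3 and Camk2a kept theirs without passing in any. Of the 9 genes, 2 were called in the test as reported. This count was 1 with no filter, with median-of-ratios or upper-quartile scaling, with a constant prior variance and at a threshold of 0.01, and 5 with array weights, where Camk2b, Camk4 and Camkk2 passed as well (limma adjusted p = 0.0280, 0.0406 and 0.0266). Leaving out 1 library gave 1 to 2 called. Of the pathway genes 6 were called, against 2 with no filter, 12 with array weights, 4 centred on neuron markers, 1 at 0.01 and 1 to 8 without 1 library. Over all genes 1689 were called, against 935 with no filter and 1052 at a mean of 5 RPKM (other numbers of genes tested), 1013 centred on neuron markers, 4041 with array weights, 320 at 0.01 and 466 to 2300 without 1 library. Centring on neuron markers left 286 of the 1013 calls higher (28.2%, against 51.1%). The replicate block gave 1 of the 9 genes, 2 pathway genes and 600 genes in all, and Camk2g lost its call with it (limma adjusted p = 0.103). Deviations from the group means correlated at 0.058, -0.24 and -0.075 between libraries with the same number, and the numbers were therefore not treated as a pairing.

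Camk2n1 was at -0.041 with quantile normalization, -0.018 centred on neuron markers, -0.020 with array weights and ranged from -0.061 (without fibrinogen replicate 1) to 0.19 without 1 library. Of 54 alternatives for the shares, 3 changed sign, and over the fits that leave out 1 library the difference ranged from -0.67 to 0.74 percentage points for Camk2b and from -0.060 to 0.37 for Camk2d. Camk2d ranged from -0.32 to 0.23 in log2 change. Where no cause is named, the cause was not tested. With 3 libraries a group, a share cannot reach a p under 0.1.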
